A study of Mus musculus with 6 samples.

Results

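The serum- and glucocorticoid-regulated kinases Sgk1 and Sgk3, the protein kinase B genes Akt1 and Akt2, and their shared activators Pdpk1, Mtor and Rictor were followed in microglia, the macrophages that live in the brain. These 7 genes were taken by symbol from a count table of 11881 genes, and all 7 passed the low-count filter that left 10832 genes for testing. They were chosen by symbol with the lower Sgk3 and Sgk1 counts of these same libraries already known, so their fold changes are given as a description. The cells came from the hippocampus of male mice at postnatal days 17 to 21, sorted for CD11b with low CD45. RNA was extracted with TRIzol, amplified by the SMART-seq method, which copies small amounts of mRNA, and made into libraries with a TruePrep kit. There were 3 libraries labelled Mll5+/-, from mice heterozygous for Mll5 (now Kmt2e), a gene of the MLL family, and 3 libraries labelled WT, 1 per mouse by the animal numbers in the labels. The mouse strain and what disrupts Mll5 are unstated in the labels. The series title places SGK3 between the receptor TREM2 and the kinase GSK3-beta, and the question here was how the SGK and AKT branches and their activators compared between these genotypes.

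SGK and AKT enzymes are serine/threonine kinases of the AGC family with like target sequences. Both become active when phosphoinositide 3-kinase (PI3K) makes its lipid signal: PDK1, the product of Pdpk1, phosphorylates the activation loop, and mTOR complex 2, built from the catalytic subunit mTOR and the scaffold Rictor, phosphorylates a second site near the end of the protein. AKT reaches the plasma membrane through a domain that binds PI3K lipids, SGK3 sits on endosomes through a lipid-binding PX domain, and SGK1 lacks such a domain and is controlled largely by how much of its mRNA is made. In macrophages these kinases act on survival, metabolism and inflammatory signalling through targets such as GSK3 and the FOXO transcription factors.

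The 6 libraries held between 21075570 and 29730400 counts. Microglial transcripts were abundant in both genotypes, with 8074 to 8835 CPM (a gene's count relative to the scaled total of its library) summed over 10 microglial markers in the libraries labelled Mll5+/- and 9543 to 13482 CPM in those labelled WT. P2ry12, a purinergic receptor of resting microglia, carried much of that gap, with 1115, 1232 and 1087 CPM in libraries labelled Mll5+/- and 4269, 1366 and 5499 CPM in those labelled WT. Libraries labelled Mll5+/- held 648, 298 and 513 CPM of Kmt2e itself, against 480, 378 and 688 CPM in those labelled WT. These overlapping levels do not bear out a lost copy, and a count over the entire gene need not do so, therefore genotypes are named only as labelled.

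Sgk3 was lower in every library labelled Mll5+/-. It had 10.3, 10.8 and 15.2 CPM in libraries labelled Mll5+/- and 55.1, 57.6 and 57.6 CPM in those labelled WT. The genotypes did not overlap, and the mean labelled Mll5+/- was 21.3% of the mean labelled WT. Sgk3 lies on chromosome 1 from 9868332 to 9971070 in mm39, the mouse build of the deposited table, and no other gene of that table overlaps it. GENCODE places a processed pseudogene and a small nuclear RNA on its opposite strand, whose reads cannot be told apart without a known strand setting. In bulk libraries, fewer cells with a transcript and less of it per cell cannot be told apart.

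The log2 fold change of Sgk3, libraries labelled Mll5+/- over those labelled WT, was -2.23 (SE 0.357), with a 95% interval from -3.04 to -1.42. No gene passed an adjusted p of 0.05 in edgeR's quasi-likelihood test (0.0% of 10832 genes; 312 had an unadjusted p under 0.05, as did 3.55% of genes in limma-voom and 4.87% in DESeq2), and the adjusted p of Sgk3 was 0.9995. In DESeq2, which called 29 genes (0.255% of those with an adjusted p; limma-voom called 0), Sgk3 passed with an adjusted p of 0.000111. The spread of Sgk3 between libraries of 1 genotype was small: its pooled within-genotype SD was 0.219 on the log2 CPM scale. The median over 5085 genes with mean CPM from 10 to 100 and a count in every library was 0.586. Of those genes, 4.76% had a smaller SD than Sgk3, as did 11.3% of the 6804 with mean CPM of at least 10. Sgk3 was chosen with its genotype difference known and had the smallest edgeR p of all tested genes. A small SD favours a small p, so this comparison carries no weight of its own. The coefficient of variation was 22.4% in the libraries labelled Mll5+/- and 2.57% in those labelled WT.

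Sgk1, whose mRNA is known to rise quickly with glucocorticoids and cell stress, was also lower in all libraries labelled Mll5+/-. It had 154, 127 and 54.4 CPM in libraries labelled Mll5+/- and 192, 199.8 and 252 CPM in those labelled WT. The genotypes did not overlap, but the gap was narrow between Mll5+/- replicate 1 and WT replicate 1, and Mll5+/- replicate 3 stood well below the others. The log2 fold change was -0.94 (SE 0.363), with a 95% interval from -1.76 to -0.12 and an adjusted p of 0.9995 in edgeR. Without Mll5+/- replicate 3 it was -0.62 (SE 0.242). Sgk3 and Sgk1 were thus 2 of 7 genes without overlap between genotypes, both in the direction of lower levels, where 4.64% of all tested genes had no overlap in that direction, 4.68% in the other and 9.32% in either. Both had an unadjusted p under 0.05 in edgeR (Sgk3 0.000166, Sgk1 0.0296), as did 2.88% of all tested genes. Without WT replicate 3 the log2 fold change of Sgk1 was -0.81, with an unadjusted p of 0.0884 in edgeR. These values chose the genes, so the counts carry no weight of their own.

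**Figure D1:**
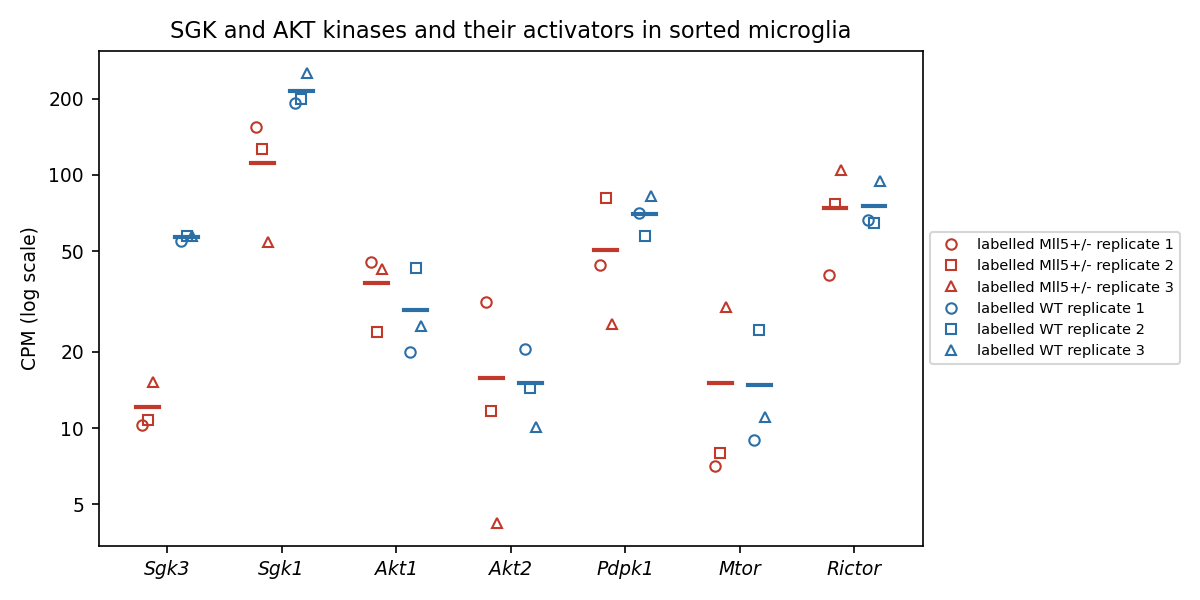
CPM on a log scale for each kinase gene, with 1 point per library and a bar at the mean of the 3 libraries labelled Mll5+/- (red, left) or labelled WT (blue, right). Sgk3 and Sgk1 separate the genotypes, while the libraries of both genotypes overlap for Akt1, Akt2, Pdpk1, Mtor and Rictor.

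Sgk1 lies on chromosome 10 from 21758083 to 21875802 (mm39) and has 6 promoter entries in RefSeq on the older build GRCm38.p6, each 250 bases before to 50 bases after an annotated start. They were read because Sgk1 is a textbook glucocorticoid target. A full glucocorticoid response element, spelled AGAACA, 3 bases of any kind and TGTTCT, which reads the same on both strands, was in 1 of the 6 Sgk1 entries and in 3 of 32851 promoter entries of this length (0.00913%). The search covered both strands. It begins 189 bases before the annotated start, on the plus strand at chr10:21993640-21993939 (GRCm38.p6), and is in capitals:
Sgk1 promoter with the element: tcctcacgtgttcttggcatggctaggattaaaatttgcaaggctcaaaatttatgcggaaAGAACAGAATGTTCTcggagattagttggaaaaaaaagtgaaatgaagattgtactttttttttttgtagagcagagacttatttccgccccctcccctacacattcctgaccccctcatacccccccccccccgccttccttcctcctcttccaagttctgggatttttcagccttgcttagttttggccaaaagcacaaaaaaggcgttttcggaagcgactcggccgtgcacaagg
The next start downstream, at chr10:21994416-21994715, is rich in G and C (69.7%, against 46.3% for the entry above) and holds none of the 4 motifs searched:
Sgk1 promoter without a motif: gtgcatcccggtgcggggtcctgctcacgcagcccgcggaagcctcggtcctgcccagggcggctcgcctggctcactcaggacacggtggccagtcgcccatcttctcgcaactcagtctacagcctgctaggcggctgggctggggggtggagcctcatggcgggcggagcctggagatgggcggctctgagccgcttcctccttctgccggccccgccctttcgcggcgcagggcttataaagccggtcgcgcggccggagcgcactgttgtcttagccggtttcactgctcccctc
Counts are per gene, so they do not tell which Sgk1 start was used. Of the 7 genes, all but Sgk3 matched an entry, with 16 promoters in all, so the motif search does not cover Sgk3. Among them, the FOXO motif GTAAACA was in 1 Akt1 promoter (3.65% of all promoters hold it), and the PU.1 motif GAGGAAGT (3.20%) and the cyclic AMP response element TGACGTCA (1.79%) were in none. These are letter matches and no evidence of binding.

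Other genes of the glucocorticoid response were looked at beside Sgk1. Of 15 receptors and targets, 12 were tested, 6 with negative and 6 with positive log2 fold changes (median 0.12, against 0.02 over all tested genes, and the same with Nr3c2 set at its bound), and 0 passed the adjusted threshold in edgeR. An unadjusted p under 0.05 was found for 1 of the 12, beside 2.88% of all tested genes. It was Nr3c2, the mineralocorticoid receptor, which binds corticosteroids and is known to induce Sgk1 in kidney. Libraries labelled Mll5+/- held 0 counts of it, where 3 counts would be 0.105 to 0.142 CPM, and 1.55, 3.04 and 9.54 CPM in those labelled WT. It passed the low-count filter only through the libraries labelled WT, so it had to differ and its p is not given as a result. Fkbp5, a chaperone that is a standard readout of glucocorticoid exposure, had 114, 169 and 372 CPM in libraries labelled Mll5+/- and 228, 194 and 256 CPM in those labelled WT, with overlap. Tsc22d3, the glucocorticoid-induced leucine zipper gene, had 35.5, 35.6 and 37.6 CPM in libraries labelled Mll5+/- and 23.2, 26.4 and 77.2 CPM in those labelled WT. Ddit4, an inhibitor of mTOR complex 1, had 2.80, 7.86 and 14.8 CPM in libraries labelled Mll5+/- and 2.22, 3.66 and 23.7 CPM in those labelled WT. Fkbp5 was highest in Mll5+/- replicate 3, where Sgk1 was lowest, while Tsc22d3 and Ddit4 were highest in WT replicate 3, where Sgk1 was highest. These 3 targets were chosen after their values were seen.

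The AKT genes did not separate the genotypes. Akt1, the broadly expressed AKT gene, had 45.3, 23.9 and 42.6 CPM in libraries labelled Mll5+/- and 19.98, 42.7 and 25.4 CPM in those labelled WT. Each genotype held both low and high libraries, and the log2 fold change was 0.34 (SE 0.436), with a 95% interval from -0.65 to 1.33. Akt2, the form best known for its part in insulin-driven glucose uptake, had 31.4, 11.6 and 4.21 CPM in libraries labelled Mll5+/- and 20.6, 14.4 and 10.1 CPM in those labelled WT. The libraries labelled Mll5+/- held both the highest and the lowest Akt2 value. Its log2 fold change was 0.07 (SE 0.731), with an interval from -1.59 to 1.73 that includes both a loss and a gain as large as the difference of Sgk1. Sgk2, the remaining SGK gene, had no row in the count table, so its level could not be read.

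**Figure D2:**
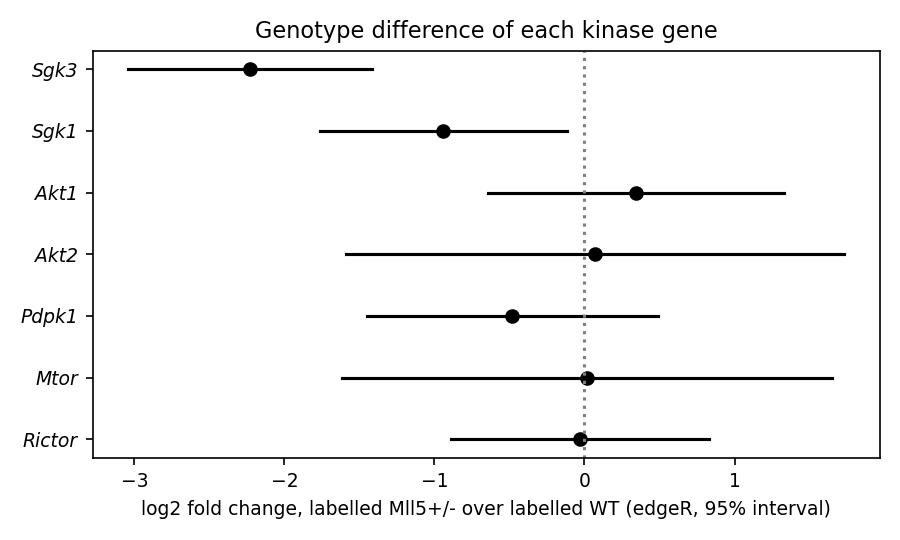
Log2 fold change of each kinase gene (point), labelled Mll5+/- over labelled WT, with its 95% interval from edgeR (line), 3 libraries per genotype. The intervals of Sgk3 (-3.04 to -1.42) and Sgk1 (-1.76 to -0.12) lie below 0, and those of the other 5 genes include 0.

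Akt1 lies on chromosome 12 from 112620255 to 112641318 and Akt2 on chromosome 7 from 27290977 to 27340251 (mm39). Since the counts are per symbol, the transcripts of the paralogs were searched for stretches that a read could not assign. The longest run of bases shared by any transcript of Sgk3 and any of Sgk1 (GENCODE M21) had 14 bases, and that of Akt1 and Akt2 had 32 bases:
Sgk3 and Sgk1: aatgtgaagcaccc
Akt1 and Akt2: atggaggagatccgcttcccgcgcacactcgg
The runs shared by an SGK gene with Akt1 or Akt2 had 13 to 15 bases. The sources used here do not state the read length, and the assignment of reads between paralogs was not tested.

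Within a library, the ratio of 2 genes does not depend on how libraries are scaled. The log2 ratio of Sgk3 to Akt1 was -2.14, -1.15 and -1.48 in the libraries labelled Mll5+/- and 1.46, 0.43 and 1.18 in those labelled WT. The genotypes did not overlap. Per kilobase of transcript, Sgk3 was below Akt1 in all 3 libraries labelled Mll5+/- and above it in WT replicates 1 and 3, while WT replicate 2 had 15.2 CPM per kilobase of Sgk3 and 15.9 of Akt1. The ratio of Sgk3 to Akt2 was -1.61, -0.11 and 1.86 in the libraries labelled Mll5+/- and 1.42, 1.996 and 2.52 in those labelled WT, and overlapped, with Akt2 very low in Mll5+/- replicate 3. The ratio of Sgk3 to Sgk1 was -3.91, -3.56 and -1.84 in the libraries labelled Mll5+/- and -1.80, -1.79 and -2.13 in those labelled WT. In Mll5+/- replicate 3 both SGK genes were low by like amounts, while in the other libraries labelled Mll5+/- Sgk3 was low beyond Sgk1. The ratio of Akt1 to Akt2 also overlapped (0.53, 1.04 and 3.34 in libraries labelled Mll5+/- against -0.04, 1.57 and 1.34 in the libraries labelled WT).

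Sgk1 and Sgk3 together made up 68.2%, 79.5% and 59.8% of the summed CPM of Sgk1, Sgk3, Akt1 and Akt2 in the libraries labelled Mll5+/- and 85.9%, 81.8% and 89.7% in those labelled WT. The genotypes did not overlap, with means of 69.2 ± 9.87% (SD, n = 3) in the libraries labelled Mll5+/- and 85.8 ± 3.95% (SD, n = 3) in those labelled WT. Without Sgk1, Sgk3 made up 11.8%, 23.3% and 24.5% of the CPM of Sgk3, Akt1 and Akt2 in the libraries labelled Mll5+/- and 57.6%, 50.2% and 61.9% in those labelled WT. Per kilobase of transcript, the share of Sgk1 and Sgk3 was 73.4%, 82.7% and 61.0% in libraries labelled Mll5+/- and 88.6%, 83.5% and 91.0% in those labelled WT. These ratios use the values that chose the genes, so no test is given. With 3 against 3 libraries an exact permutation test could not go below p = 0.1 in any case.

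**Figure D3:**
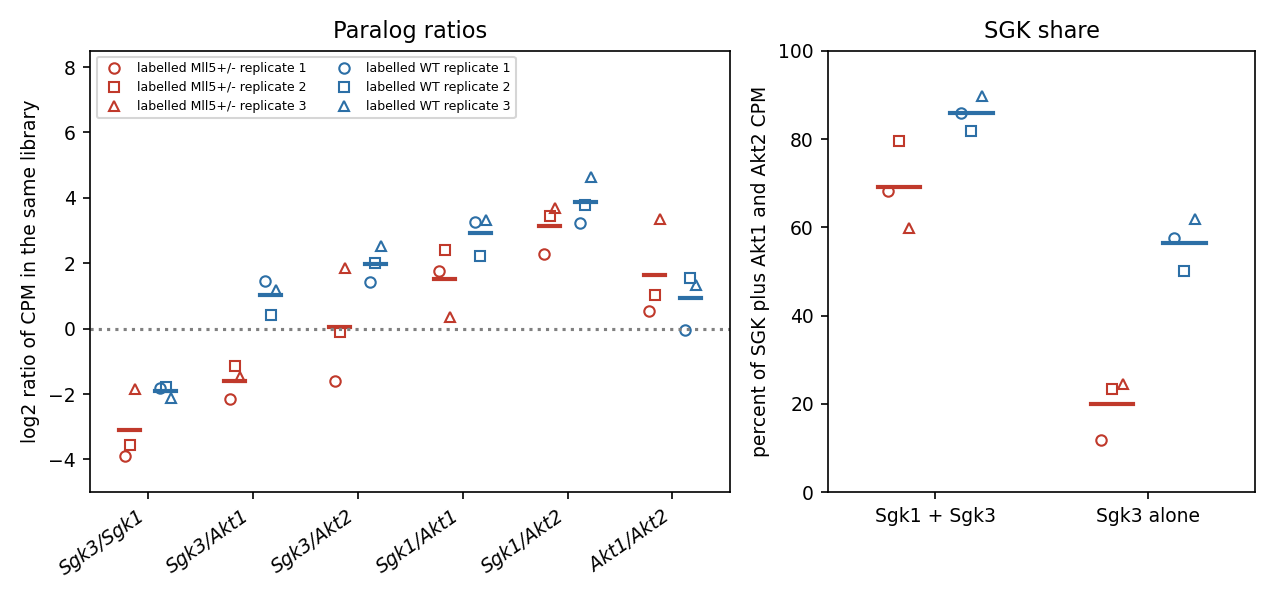
Left, log2 ratio of the CPM of 2 paralogs in the same library, and right, share of Sgk1 plus Sgk3, or of Sgk3 alone, in the CPM of SGK plus Akt1 and Akt2, with 1 point per library and a bar at the mean (labelled Mll5+/- red and left, labelled WT blue and right). Sgk3 over Akt1 lies below 0 in the 3 libraries labelled Mll5+/- and above 0 in the 3 labelled WT, and Akt1 over Akt2 overlaps.

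The activators shared by both branches overlapped between genotypes. Pdpk1 (chromosome 17, 24292654 to 24369898), the gene for PDK1, had 44.0, 81.4 and 25.7 CPM in libraries labelled Mll5+/- and 71.0, 57.3 and 82.7 CPM in those labelled WT. Of the libraries labelled Mll5+/-, replicates 1 and 3 were below all libraries labelled WT and replicate 2 was near their highest. The log2 fold change was -0.48 (SE 0.428), with a 95% interval from -1.45 to 0.49. Mtor (chromosome 4, 148533068 to 148642140) had 7.10, 7.93 and 30.0 CPM in libraries labelled Mll5+/- and 8.99, 24.4 and 11.1 CPM in those labelled WT. In each genotype 1 library stood well above the other two, and the log2 fold change was 0.02 (SE 0.719, interval -1.62 to 1.65). The gene Angptl7 lies within Mtor on the opposite strand, and without a stated strand setting its reads cannot be told apart from those of Mtor.

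Rictor (chromosome 15, 6737864 to 6829882), which defines mTOR complex 2, had 40.1, 76.6 and 104.7 CPM in libraries labelled Mll5+/- and 66.7, 64.8 and 94.96 CPM in those labelled WT. The libraries labelled Mll5+/- held both the lowest and the highest value. Its log2 fold change was -0.03 (SE 0.379), with an interval from -0.89 to 0.83. All 5 genes other than Sgk3 and Sgk1 had an adjusted p of 0.9995 in edgeR. Their intervals reach from 0.49 to 1.73 at the upper end and from -1.62 to -0.65 at the lower. Moderate differences were therefore not detectable with 3 libraries per genotype. The lowest count of any of the 7 genes was 89, for Akt2 in Mll5+/- replicate 3. Its exact Poisson 95% interval was 71.5 to 109.5 counts, small beside the 89 to 797 counts of Akt2 in libraries labelled Mll5+/-. This comparison covers Akt2 only. Sgk3 varied so little between libraries labelled WT (coefficient of variation 2.57%) that counting error need not be small beside that spread.

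Levels of different genes were compared per kilobase of transcript. In the libraries labelled Mll5+/- the order was Sgk1 with 45.6 ± 21.0, Akt1 with 13.8 ± 4.33, Rictor with 7.93 ± 3.48, Pdpk1 with 7.03 ± 3.97, Akt2 with 3.47 ± 3.10, Sgk3 with 3.20 ± 0.718 and Mtor with 1.75 ± 1.51 CPM per kilobase (SD, n = 3 each). Of neighbours in this order, Sgk1 and Akt1 did not overlap, and every later pair did. In the libraries labelled WT it was Sgk1 with 87.4 ± 13.4, Sgk3 with 15.02 ± 0.385, Akt1 with 10.9 ± 4.41, Pdpk1 with 9.82 ± 1.78, Rictor with 8.10 ± 1.82, Akt2 with 3.31 ± 1.16 and Mtor with 1.73 ± 0.9755 CPM per kilobase (SD, n = 3 each). There, Sgk1 stood clear of Sgk3 and Rictor of Akt2, while the other neighbours overlapped. Sgk3 thus held the second place of 7 in the libraries labelled WT and the sixth in those labelled Mll5+/-, and Sgk1 led in both.

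Around these kinases, 6 lists of pathway genes gave 83 genes, of which 76 were in the table and 75 were tested. None passed the adjusted threshold in edgeR. With an unadjusted p under 0.05 there were 4 genes lower and 2 higher with the Mll5+/- label (8.0% of the 75, beside 2.88% of all tested genes; 1.52% were lower and 1.36% higher over all genes). The count was 3 without WT replicate 3, and 1 of the lower genes, Pik3r3, passed the low-count filter only through the libraries labelled WT. The median log2 fold change of the 75 was 0.10. The genotypes did not overlap for 5 of them at lower and 3 at higher levels, beside 9.32% of all tested genes in either direction.

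Of the 19 genes of PI3K and the phosphatases that remove its lipids, 2 had an unadjusted p under 0.05, both lower (median -0.13). Pik3r3, a regulatory subunit of PI3K, had 0.868, 0 and 0 CPM in libraries labelled Mll5+/- and 7.78, 1.73 and 22.1 CPM in those labelled WT. Since the libraries labelled WT alone carried it past the low-count filter, it had to differ, and its p is not given as a result. Pik3r1, another regulatory subunit, had 361, 347 and 267 CPM in libraries labelled Mll5+/- against 322, 302 and 311 CPM in those labelled WT, with overlap. Pik3r1 and Pik3c3 were chosen after their values were seen. Pik3c3, the class III enzyme that makes the endosomal lipid to which SGK3 binds, had 8.92, 19.9 and 9.64 CPM in libraries labelled Mll5+/- and 6.94, 6.23 and 20.2 CPM in those labelled WT.

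Of the 13 tested mTOR complex genes and inputs, 0 had an unadjusted p under 0.05 in edgeR (10 positive, median 0.35). The one of smallest p was Tti1, which helps assemble mTOR-family kinases, with 61.5, 60.9 and 105 CPM in libraries labelled Mll5+/- and 46.5, 65.8 and 65.5 CPM in those labelled WT. Of 12 phosphatases, chaperones and modulators, 2 had an unadjusted p under 0.05, both higher (median 0.26). Ppp2r2a, a regulatory subunit of protein phosphatase 2A, which is known to dephosphorylate AKT, had 233, 131 and 239 CPM in libraries labelled Mll5+/- and 118, 39.7 and 83.3 CPM in those labelled WT (log2 fold change 1.32, SE 0.410, edgeR unadjusted p = 0.0106). Ppp2r1b, a scaffold subunit of the same enzyme, had 24.9, 6.28 and 17.1 CPM in libraries labelled Mll5+/- and 4.98, 5.50 and 1.11 CPM in those labelled WT (log2 fold change 2.06, SE 0.835, edgeR unadjusted p = 0.0366). Neither overlapped between genotypes, as for 9.32% of all tested genes, and neither passed the adjustment in edgeR. The other genes of this enzyme in the list did not share a direction. The catalytic subunit gene Ppp2cb had 5.60, 4.85 and 5.34 CPM in libraries labelled Mll5+/- and 11.8, 6.58 and 6.31 CPM in those labelled WT, a lower level without overlap (log2 fold change -0.64, SE 0.728). The log2 fold change of the catalytic subunit gene Ppp2ca was 0.64 (SE 0.414) and that of the scaffold gene Ppp2r1a was -0.09 (SE 0.809), both with overlap. These 3 genes were chosen after their values were seen.

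Of 16 tested genes for substrates and downstream proteins, 2 had an unadjusted p under 0.05, both lower (median 0.02). Tbc1d4, the AKT substrate AS160 of glucose transporter traffic, had 51.1, 26.9 and 23.1 CPM in libraries labelled Mll5+/- and 121, 90.1 and 59.6 CPM in those labelled WT (log2 fold change -1.42, SE 0.414, edgeR unadjusted p = 0.00765). Foxo1, a transcription factor that both kinases hold outside the nucleus, had 18.7, 8.497 and 18.7 CPM in libraries labelled Mll5+/- and 25.2, 27.8 and 52.7 CPM in those labelled WT (log2 fold change -1.20, SE 0.501, edgeR unadjusted p = 0.0403). Neither overlapped between genotypes, as for 4.64% of all tested genes at lower levels. The GSK3 genes overlapped: Gsk3b had 57.5, 1526 and 1319 CPM in libraries labelled Mll5+/- and 92.2, 63.1 and 1477 CPM in those labelled WT, and Gsk3a stayed under 3 CPM in every library. Of 14 other AGC kinases that PDK1 activates, 0 had an unadjusted p under 0.05 in edgeR (median 0.11). Among them Rps6ka1, the kinase RSK1, had the smallest p, with 219, 132 and 299 CPM in libraries labelled Mll5+/- and 160, 164 and 142 CPM in those labelled WT.

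**Figure D4:**
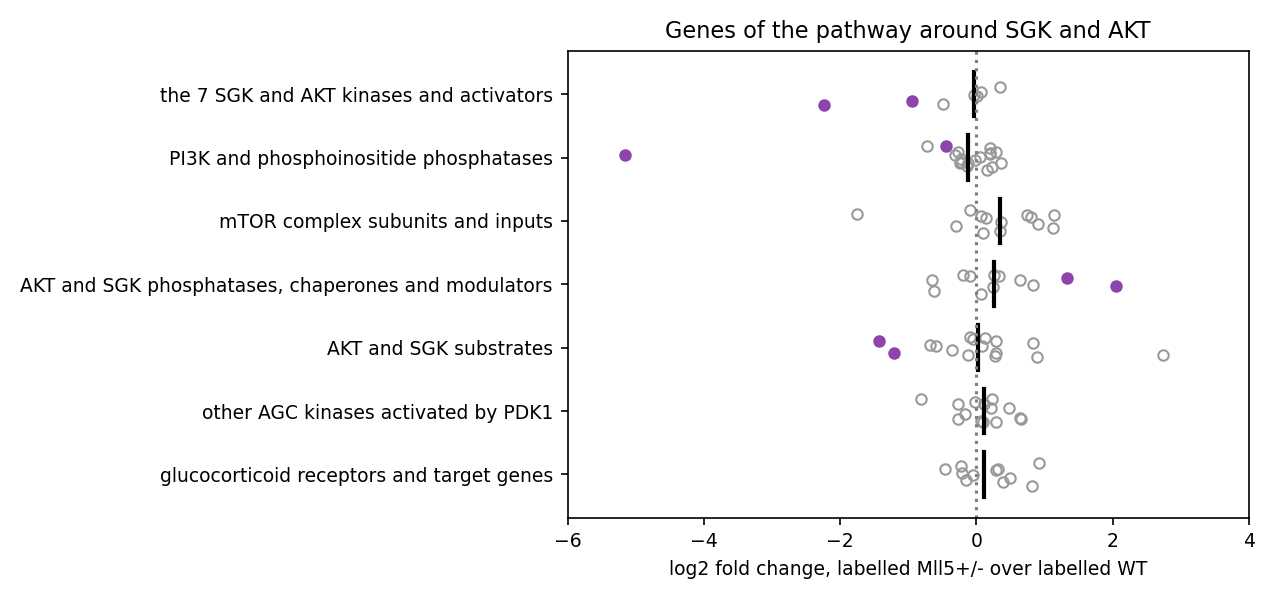
Log2 fold change of each tested gene, labelled Mll5+/- over labelled WT, by list. Filled purple points have an unadjusted edgeR p under 0.05, open grey points do not, and black bars are list medians. Sgk3 at -2.23 and Sgk1 at -0.94 are the filled points of the top row, and Nr3c2, with no count in the libraries labelled Mll5+/-, is left out of the bottom row.

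The genes named as most like Sgk3 or Sgk1 were tested genes with mean CPM of at least 10. Predicted genes, with symbols of Gm and a number or ending in Rik, were passed over. By profile over the 6 libraries, those most like Sgk3 were Pphln1, Plpp3 and Csmd3. Likeness was the root mean square difference of centred log2(CPM + 1) values. It was 0.37, 0.38 and 0.39 for these genes, against a median of 1.18 over 6834 candidates, predicted genes included. Pphln1, a subunit of a gene-silencing complex, had 6.59, 3.93 and 4.58 CPM in libraries labelled Mll5+/- and 23.3, 25.8 and 16.4 CPM in those labelled WT. Plpp3, a lipid phosphatase that is also an astrocyte marker, had 3.39, 4.39 and 5.62 CPM in libraries labelled Mll5+/- and 15.5, 11.5 and 23.0 CPM in those labelled WT. For Sgk1 they were the zinc finger gene Zfp53, the exosome ribonuclease gene Dis3 and Abhd15, at differences of 0.12, 0.16 and 0.17 against a median of 0.84. Dis3 had 11.9, 10.8 and 4.63 CPM in libraries labelled Mll5+/- and 16.9, 16.0 and 28.5 CPM in those labelled WT. Sgk1 itself ranked 247 by likeness to Sgk3, at a difference of 0.84. By likeness to Sgk1, Sgk3 ranked only 3414 of 6834 at that same difference, which lay at the median. Pdpk1 ranked 205 by likeness to Sgk1, and Mtor was the least like Sgk1 of the group, at 6024.

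Transcripts of other cell types that a CD11b sort could carry were measured beside these results. Of 10 astrocyte markers 7 were in the table, and their summed level was 268 to 559 CPM in libraries labelled Mll5+/- and 387 to 574 CPM in those labelled WT. Within this list Gja1, the gap junction protein connexin 43, had 3.51, 6.71 and 1.75 CPM in libraries labelled Mll5+/- and 22.7, 23.2 and 28.6 CPM in those labelled WT, a split like that of Sgk3, while the abundant Slc1a3 overlapped. Plpp3, given above, was also lower without overlap. These were 2 of the 7 tested astrocyte markers, beside 4.64% of all tested genes at lower levels, and the other markers overlapped. Of 10 oligodendrocyte lineage markers 6 were in the table, with summed levels of 98.2 to 135 CPM in libraries labelled Mll5+/- and 140 to 185 CPM in those labelled WT, which did not overlap. Of 10 markers of border-associated macrophages 6 were in the table, and their sum was 369 to 692 CPM in libraries labelled Mll5+/- and 265 to 328 CPM in those labelled WT, highest in Mll5+/- replicate 3. These sums did not overlap, but each gene of the list overlapped on its own. Most of the sum came from Stab1 (331, 162 and 489 CPM labelled Mll5+/-, 218, 245 and 139 CPM labelled WT) and Mrc1. The log2 fold changes of the 5 tested genes were all positive. The sums for neuron (3 of 10 in the table), endothelial and mural (5 of 10), monocyte and neutrophil (5 of 10), and immediate early genes (10 of 12) overlapped between genotypes. The part of these other transcripts in the levels of Sgk3 and Sgk1 was not tested.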

How the data were processed

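Unnormalised whole-number counts by gene symbol were deposited by the authors in a single table with mm39 gene coordinates. FastQC, STAR, StringTie and DESeq2 were used, per the submitters' processing notes. The sources used here give no versions, counting step or strand. Columns were matched to mice by the animal number in the titles, and genotype groups came from the labels. The filter was edgeR's filterByExpr (minimum count 10, minimum total 15), which removed 1049 of 11881. CPM use TMM-scaled library sizes. All genes were fitted together with edgeR 4.0.16 (quasi-likelihood, robust; limma 3.58.1, R 4.3.3), labelled Mll5+/- over labelled WT, adjusted by Benjamini-Hochberg at 0.05. SEs came from the fold change and its F statistic. P-values are two-sided and measure the spread between these 6 libraries. The biological coefficient of variation was 80.4%. The script was tested on simulated counts. The edgeR intervals of the fold changes likewise include the spread between libraries. Reads were amplified with no molecular identifiers and may repeat a molecule, so the exact Poisson interval and the floors (3 counts) cover counting error only.

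The members and lists were chosen with earlier results of these data known. Named genes were the members, Kmt2e, list genes with unadjusted p under 0.05 or else the smallest p, Gsk3a, Gsk3b, the 3 genes most like Sgk3 and Sgk1, and leading markers. Some are counted rather than named, and some are not reported here. Alternatives were DESeq2 1.42.0, limma-voom, other size factors and filters, and each library left out. Lengths are of the longest principal GENCODE M21 transcript, and promoters are RefSeq's (GRCm38.p6).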

Additional observations from a re-analysis of the deposited data

How the results depend on the processing

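No paired analysis was possible because the replicate numbers follow the order of the samples and pair no mice. Sgk3 and Sgk1 were negative under all 12 alternatives each. Sgk3 ran from -2.44 (without Mll5+/- replicate 3) to -2.14 (without Mll5+/- replicate 1), and Sgk1 from -1.26 (without Mll5+/- replicate 1) to -0.62 (without Mll5+/- replicate 3). Sgk3 passed the adjusted threshold in DESeq2 alone (log2 fold change -2.23), where 29 genes were called. With a library left out, edgeR called 0 to 2 genes. The adjusted p of Sgk3 was 0.000111 in DESeq2 and 0.333 (without Mll5+/- replicate 3) to 0.99998 under the other alternatives. Akt1 was positive throughout: with WT replicate 1 left out it was 0.12, and with WT replicate 2 left out 0.70. It was 0.16, 0.57 and 0.22 without Mll5+/- replicates 1, 2 and 3 in turn. Pdpk1 was negative throughout, from -1.03 without Mll5+/- replicate 2 (edgeR unadjusted p = 0.0334) to -0.18 without Mll5+/- replicate 3. The signs of Akt2, Mtor and Rictor were not stable. Akt2 was -0.22 with limma-voom, and -0.93 (without Mll5+/- replicate 1) to 0.51 over the left-out libraries. Mtor was -0.26 with limma-voom and -0.0056 without the low-count filter, and -0.99 (without Mll5+/- replicate 3) to 0.56 over the left-out libraries. Rictor was -0.38 to 0.25 over them. The pathway lists held 3 (without WT replicate 3) to 7 genes with an unadjusted p under 0.05, and their median was 0.055 to 0.15 with a library left out. The difference in the SGK share was -16.6 percentage points, labelled Mll5+/- minus labelled WT (-21.8 to -11.97 over the left-out libraries). It was -15.7 per kilobase of coding length, -15.4 per kilobase of transcript (chosen after seeing the data), and -36.7 with Sgk3 alone, which leaves out the abundant Sgk1. The cause of the other shifts was not tested.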
